A study of Homo sapiens with 9 samples.

Results

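The transcripts of the mitochondrial genome were followed across 9 RNA-seq libraries of HEK293, an established human embryonic kidney cell line. Members were taken as the rows of the deposited count table whose symbol begins with MT-, which gave 13 of 35876 symbols. All 13 are protein-coding, so every messenger of the mitochondrial genome was measured. The 2 ribosomal RNA and 22 transfer RNA genes of that genome were not analysed here. The 9 libraries form 3 groups of 3 replicates, and every genotype begins with CC, a prefix of unstated meaning. The Cas9 group (CC_Cas9) carried the RNA-guided nuclease Cas9. The Cre group (CC_Cas9_Cre) carried Cas9 with the recombinase Cre, and the Flpo group (CC_Cas9_Flpo) carried Cas9 with the recombinase Flpo. The series concerns a reversible, chemically induced knockout system. The labels name no target gene, no inducer treatment, no time point and no promoter, and do not say whether a group is a single clone or whether replicates came from separate cultures. The p-values therefore measure only the spread between these samples, which may be technical.

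The mitochondrial genome is a small circle carried in many copies in each cell. Both of its strands are transcribed into long precursors, and most messengers are freed when the transfer RNAs that punctuate them are cut out. Its messengers code for membrane subunits of respiratory complexes I, III and IV and of ATP synthase (complex V), while the remaining subunits, and the whole of complex II, are coded by nuclear genes. Transcription is carried out by the polymerase POLRMT with the factors TFAM and TFB2M, and LRPPRC with SLIRP protects the messengers.

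Of the 13 messengers, 12 are read from the plus strand of the GRCh38 mitochondrial sequence (chromosome M) and MT-ND6 alone from the minus strand. The strand sets their base content. The 12 plus-strand messengers held 6.28% to 16.2% G and 29.5% to 36.0% C, whereas MT-ND6 held 35.6% G and 7.05% C. The first 60 bases of MT-ND5 (chrM:12337-12396, plus strand) and of MT-ND6 (chrM:14614-14673, minus strand) are shown 5′ to 3′ with G in capitals, because these neighbours lie on opposite strands and their ratio is reported.
MT-ND5 start: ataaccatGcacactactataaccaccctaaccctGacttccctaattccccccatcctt
MT-ND6 start: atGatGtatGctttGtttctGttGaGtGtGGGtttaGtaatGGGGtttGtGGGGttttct

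Members also overlap. The last 46 bases of MT-ATP8 are the first 46 of MT-ATP6 (chrM:8527-8572, plus strand), and the last 7 of MT-ND4L are the first 7 of MT-ND4 (chrM:10760-10766, plus strand), so reads from these bases fit both genes. Both pairs are known to be carried on a shared messenger. The shared bases are in capitals.
MT-ATP8 end: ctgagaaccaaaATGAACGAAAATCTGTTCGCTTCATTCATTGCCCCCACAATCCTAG
MT-ATP6 start: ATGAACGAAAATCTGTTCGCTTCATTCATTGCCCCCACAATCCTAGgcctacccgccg
MT-ND4L end: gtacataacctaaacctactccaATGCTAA
MT-ND4 start: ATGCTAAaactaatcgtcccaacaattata

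A further 6 members (MT-ND1, MT-ND2, MT-CO3, MT-ND3, MT-ND4 and MT-CYB) have an annotated length that is not a whole number of codons. They end in T or TA, and their stop codons are known to be completed by addition of the poly(A) tail. The ends of MT-ND1 (chrM:4243-4262) and MT-CYB (chrM:15869-15887), both plus strand, are shown as examples with the incomplete codon in capitals.
MT-ND1 end: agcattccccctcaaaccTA
MT-CYB end: aaaatactcaaatgggccT

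Fragments of the mitochondrial genome have been copied into nuclear chromosomes, and these copies compete for its reads. Of the words of 31 bases in each member, between 3.48% (MT-ND3) and 66.7% (MT-CO1) also occurred in an annotated nuclear transcript. MT-ATP6 and its copy MTATP6P1 (chr1:633696-634376, plus strand) differed at 10 of 681 bases, an identity of 98.5%. The 60-base window with the most differences (chrM:8642-8701 and chr1:633811-633870, both plus strand) held 3, shown in capitals. Counts of members with many shared words are therefore uncertain by what was assigned to the copies.
MT-ATP6 window: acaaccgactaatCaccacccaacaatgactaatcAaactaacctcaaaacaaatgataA
MTATP6P1 window: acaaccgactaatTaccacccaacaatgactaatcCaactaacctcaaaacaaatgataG

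The libraries differed widely before any gene is considered. Totals ran from 213907 estimated counts in Cre replicate 2 to 8833491 in Flpo replicate 1, a 41.3-fold range, and the Cre totals all lay below the Flpo totals. Of 7 genes known to be expressed in HEK293, VIM, KRT8, KRT18 and NEFL had counts in all libraries, while PAX2 had counts in 1. Of the 5 tested, KRT18 and KRT8 were lower in the Cre than the Flpo group (log2 fold changes of −4.43 and −3.36, edgeR adjusted p of 0.0167 and 0.0199) and 3 did not pass. The median of the 5 was 0.10, with VIM at 447 ± 389 and 379 ± 124 CPM and NEFL at 36.6 ± 15.2 and 12.04 ± 3.87 CPM in the Cre and Flpo groups (SD, n = 3 each). The extraction protocol mentions liver tissue, and 13 hepatocyte markers summed to 2.26 to 44.6 CPM (counts scaled to a library of 1e+06), with APOC3, FGB and FGG at 0 throughout. Of 7 blood and stromal markers, 3 were tested. The stromal collagens COL1A1 and COL3A1 were higher in the Cre than the Flpo group (log2 fold changes of 3.19 and 3.04, edgeR adjusted p of 0.0243 and 0.0210). PECAM1 did not pass. COL1A1 reached 1630 CPM in Cre replicate 2 against 72.0 to 345 CPM in the other 8 libraries. The untested HBA1, HBA2, HBB and PTPRC had lower means with Cre (1.10, 0, 0 and 0 CPM) than with Flpo (3.69, 1.60, 0.170 and 0.405 CPM). The part of these markers in the mitochondrial results was not tested.

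The share of counts in mitochondrial messengers varied more within groups than between their means. The 13 genes held 2.91%, 5.58% and 7.77% of counts in Cas9 replicates 1, 2 and 3. They held 3.01%, 11.2% and 4.45% in the Cre replicates. They held 7.63%, 4.01% and 6.49% in the Flpo replicates. Counting error was small beside this, since the widest Wilson 95% interval was ±0.134 percentage points, in Cre replicate 2; such intervals cover counting error only. The mean share was 5.42% ± 2.43 over the Cas9 libraries, 6.23% ± 4.40 over the Cre libraries and 6.04% ± 1.85 over the Flpo libraries (SD, n = 3 each), so the means lay within 1 SD of each other and all 3 groups overlapped. Without Cre replicate 2, the smallest library, the Cre mean was 3.73%. The row AC010970.1, which held 0.591% to 21.9% of counts, moved the Cas9 mean to 6.60% when left out of the total. In bulk samples, fewer mitochondrial transcripts per cell cannot be told apart from more of the other RNA.

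**Figure D1:**
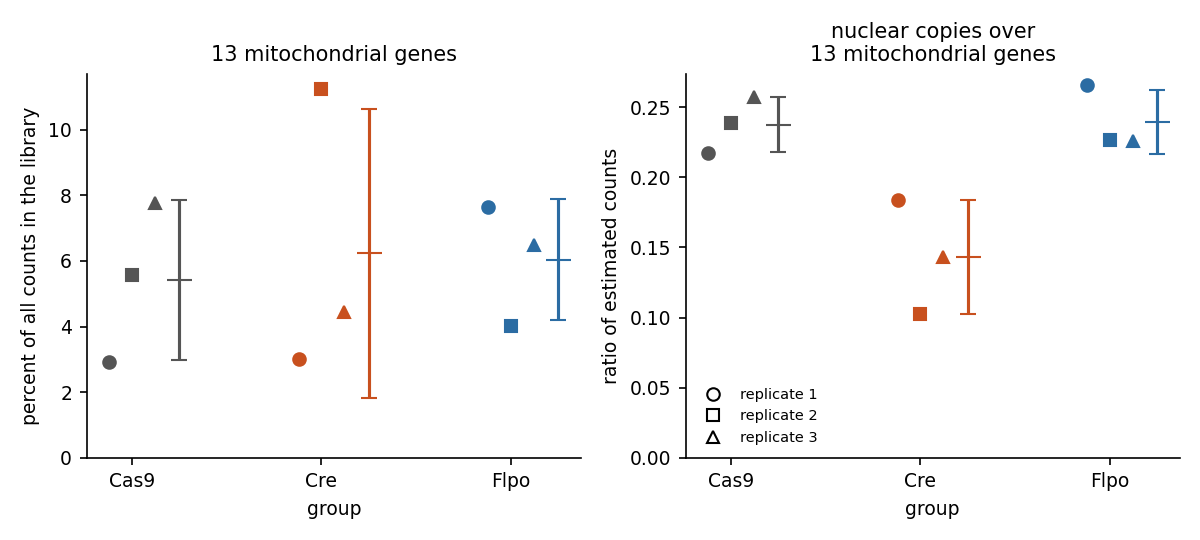
Left, percent of each library's counts in the 13 mitochondrial genes; right, estimated counts of 407 nuclear copy symbols divided by those of the 13 genes. Points are libraries, with the mean and SD (n = 3) beside them. Of the copy counts, 96.0% fell on MTRNR2L symbols, relatives of a ribosomal RNA and not of the 13 messengers. The shares overlap between all groups, with Cre replicate 2 highest at 11.2%, while the ratio on the right is lower in the 3 Cre libraries (0.102 to 0.184) than in the other 6 (0.217 to 0.266).

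The nuclear copies stood lower against the mitochondrial genes in the Cre libraries. Their counts divided by those of the 13 members were 0.217, 0.238 and 0.257 across Cas9 replicates 1 to 3, 0.184, 0.102 and 0.143 across Cre replicates 1 to 3 and 0.266, 0.227 and 0.226 across Flpo replicates 1 to 3. The Cre values did not overlap with those of either other group. Of these counts, 96.0% fell on MTRNR2L symbols, nuclear relatives of the large mitochondrial ribosomal RNA. MTRNR2L12 (chr3:96617188-96618236, minus strand), with the highest mean level, averaged 4135 ± 2324 CPM with Cre, 7908 ± 4426 with Cas9 alone and 14221 ± 6607 with Flpo (SD, n = 3 each). Of its words of 31 bases, 33.6% also occur in MT-RNR2, the large mitochondrial ribosomal RNA. Of the words of MTRNR2L12, MTRNR2L8 and MTRNR2L1, 0% occur in the 13 members. For these symbols the ratio is therefore no measure of messenger reads assigned to copies. MTRNR2L8 averaged 870 ± 201 CPM with Cre, 1649 ± 1081 with Cas9 alone and 3324 ± 1915 with Flpo (SD, n = 3 each). MTRNR2L1 averaged 355 ± 83.2 CPM with Cre, 1993 ± 1458 with Cas9 alone and 1476 ± 695 with Flpo (SD, n = 3 each). None of these 3 passed the threshold in edgeR's test between Cre and Flpo (adjusted p of 0.210, 0.0957 and 0.0743). Among the 16 nuclear copies with enough counts to test, edgeR called 3 higher and 1 lower in the Cre than the Flpo group. It called 6.17% of all genes higher and 14.3% lower. DESeq2 called 4 copies higher and 6 lower, where it called 33.4% of all genes. limma voom with sample quality weights called 7 higher and 8 lower (67.6% of all genes). In the comparisons with Cas9, 0 passed in the main edgeR fit. There, 4 (Cre) and 3 (Flpo) had an unadjusted p under 0.05, where 7.38% and 20% of all genes did. DESeq2 called 0 and 1 (0.0336% and 8.95% of all genes). The 3 copies named next were called between Cre and Flpo, and their changes are those of the Cre group. Of the words of MTND1P23, 75.1% occur in the members. MTND1P23 rose by 4.31 on the log2 scale (SE 1.06, edgeR adjusted p = 0.0207). MTND1P10, with 0% shared words, rose by 4.39 with a standard error of 1.08 (edgeR adjusted p = 0.0205). MTRNR2L10 fell by 2.58 with a standard error of 0.71 (edgeR adjusted p = 0.0287). Without TMM scaling 5 copies were higher and 0 lower in the Cre than the Flpo group. Of the copies, 0 passed with log2 totals as a covariate, or without Cre replicate 2, Cre replicate 3, Flpo replicate 1 or Flpo replicate 3.

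Per kilobase of transcript, the order of the messengers was led by the same gene in the Cas9 and Flpo libraries and not in the Cre libraries. MT-CO2, a copper-binding subunit of cytochrome c oxidase, ranked first in all 3 Cas9 and all 3 Flpo libraries, with 22.0% ± 4.94 and 23.3% ± 2.30 of length-scaled mitochondrial counts (SD, n = 3 each). In the Cre libraries it ranked 2, 11 and 5 in replicates 1, 2 and 3, with a mean of 10.8% ± 6.95 (SD, n = 3). MT-ATP6, the proton-channel subunit of ATP synthase, followed with Cas9 alone at 18.6% ± 0.991, led with Cre at 16% ± 11.8, and followed MT-CO3 with Flpo at 12.03% ± 3.59 (SD, n = 3 each). The mean of MT-ATP6 with Cre exceeded that of MT-CO2, the next in order, by less than 1 SD, and its lead came from replicate 1, where it ranked 1, against 7 and 2 in replicates 2 and 3. MT-CO3 followed MT-CO2 in the Flpo group at 17.4% ± 0.340 (SD, n = 3), without overlap. MT-ND5, the longest messenger, was lowest in the Cas9 and Flpo groups at 2.06% ± 1.41 and 1.90% ± 1.17 (SD, n = 3 each). In those groups its mean was within 1 SD of its neighbours in the order, MT-ATP8 (3.17% ± 0.762) in Cas9 and MT-ND3 (2.40% ± 1.25) in Flpo. In the Cre group it was at 5.08% ± 3.11 and MT-ATP8 was lowest at 3.56% ± 0.407 (SD, n = 3 each). Here and in the ratios per kilobase below, counts were divided by the full annotated length, without correction for fragment length. That length is only 207 bases for MT-ATP8 and 297 for MT-ND4L, so the ranks of these short messengers are uncertain.

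The make-up of the mitochondrial counts set Cre replicates 2 and 3 apart from the other 7 libraries, Cre replicate 1 included. Complex I messengers (7 genes) held 52.7% and 52.8% of mitochondrial counts in Cre replicates 2 and 3, against 33.3% in Cre replicate 1, 29.99% to 38.4% in the Cas9 libraries and 27.9% to 32.4% in the Flpo libraries. Complex IV messengers (3 genes) held 23.4% and 25.5% there, against 32.0% in Cre replicate 1, 32.8% to 43.4% in the Cas9 group and 44.4% to 48.7% in the Flpo group. The Cre group thus lay below both other groups for complex IV in every library, and the Flpo group lay above both. Both margins to the Cas9 group were narrow. Cre replicate 1 held 32.0% against 32.8% in Cas9 replicate 1, and Flpo replicate 2 held 44.4% against 43.4% in Cas9 replicate 3. ATP synthase messengers (2 genes) held 25.9% in Cre replicate 1 but 5.95% and 9.86% in Cre replicates 2 and 3, so the Cre group held both the highest and the lowest value. MT-CYB, the only complex III member, held 8.80% to 18.0% over all libraries, with both extremes in the Cre group. Between Cre replicates 1 and 2, 40.1 percentage points of the make-up differed, the most for any pair of libraries, and between Cre replicates 2 and 3 it was 9.45. The median was 14.0 points over the 9 pairs within a group and 20.7 over the 27 pairs between groups.

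**Figure D2:**
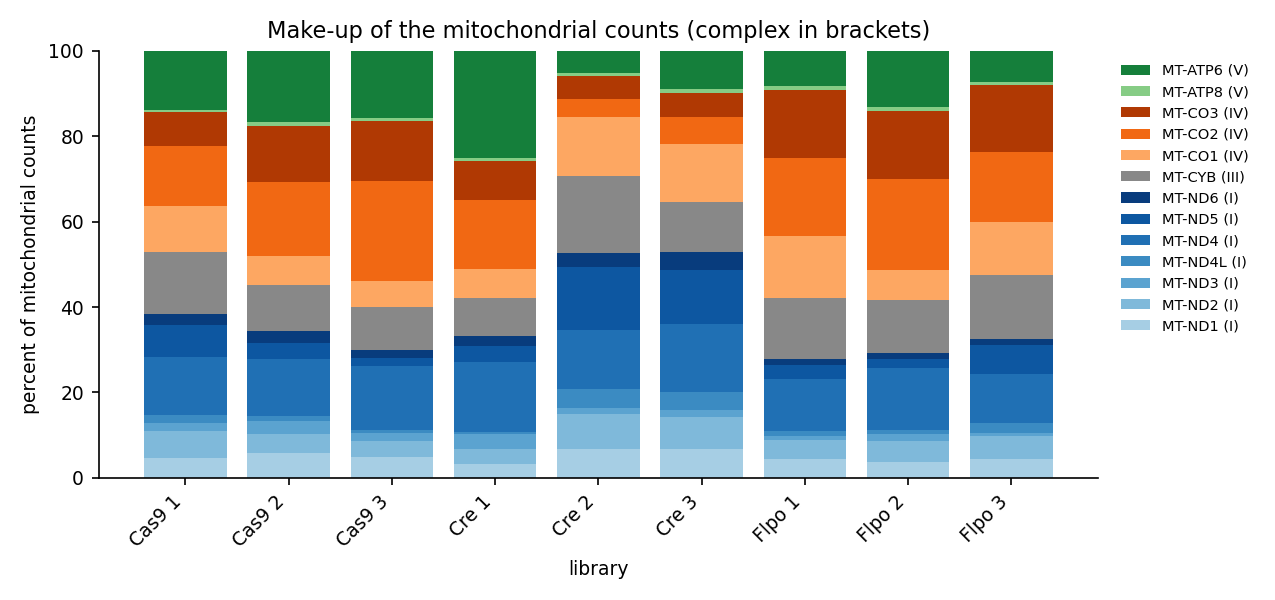
Percent of mitochondrial counts (vertical axis) held by each of the 13 genes in each library (bars), coloured by complex: blue I, grey III, orange IV, green V. Complex I holds 52.7% and 52.8% in Cre replicates 2 and 3 and at most 38.4% in the other libraries; MT-ATP6 is widest in Cre replicate 1.

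Single messengers varied to very different degrees. MT-ND4, a core proton-pumping subunit of complex I, was the steadiest as a share of mitochondrial counts, at 11.6% to 16.4%, a 1.41-fold range. MT-ND5 was the most variable, with 1.90% to 14.6%, a 7.68-fold range, followed by MT-ND4L with 0.629% to 4.53%. MT-ND5 held 7.55%, 3.90% and 1.90% across Cas9 replicates 1 to 3, 3.57%, 14.6% and 12.6% across Cre replicates 1 to 3 and 3.23%, 2.04% and 6.62% across Flpo replicates 1 to 3. Cre replicates 2 and 3 were the highest, and Cre replicate 1 lay within the range of the Cas9 group. MT-CO2 was the reverse, with 4.12% and 6.22% in Cre replicates 2 and 3 and 14.2% to 23.3% in the other 7 libraries. The share of MT-ND6 was lower in the Flpo group, at 1.57%, 1.497% and 1.42%, than in the Cas9 group, at 2.63%, 2.79% and 1.90%, or the Cre group, at 2.52%, 3.34% and 4.11%, without overlap. The share of MT-CO3 was higher in the Flpo group, at 15.9%, 16.1% and 15.6%, than in any Cas9 library (7.76%, 12.9% and 14.1%) or Cre library (9.11%, 5.43% and 5.72%). MT-ND6 and MT-CO3 were named, out of 13 members, for this lack of overlap. As TMM-scaled CPM, 25% of all genes did not overlap between Flpo and Cas9, and 43.2% between Cre and Flpo. On that scale MT-ND6 overlapped between all groups, and MT-CO3 overlapped between Flpo and Cas9.

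Levels on the scale of the whole library, as CPM with TMM scaling, followed the same libraries. MT-CO2 stood at 3419, 9163 and 19457 CPM across Cas9 replicates 1 to 3, at 3997, 3695 and 2121 across Cre replicates 1 to 3 and at 21279, 10812 and 14295 across Flpo replicates 1 to 3. All Cre values lay below all Flpo values, and the lowest Cas9 value lay among the Cre values. MT-CO3, another core subunit of cytochrome c oxidase, stood at 1863, 6789 and 11737 CPM across Cas9 replicates 1 to 3, at 2272, 4875 and 1950 across Cre replicates 1 to 3 and at 18447, 8254 and 13592 across Flpo replicates 1 to 3, with the same lack of overlap between Cre and Flpo. MT-ATP6 stood at 3329, 8802 and 13089 CPM across Cas9 replicates 1 to 3, at 6250, 4635 and 3042 across Cre replicates 1 to 3 and at 9669, 6777 and 6307 across Flpo replicates 1 to 3. Here too the Cre and Flpo groups did not overlap, but only narrowly. The highest Cre value was 6250 CPM and the lowest Flpo value 6307 CPM. TMM factors were 1.22, 1.27 and 1.32 for Cre replicates 1 to 3 and 0.663, 0.796 and 0.753 for Flpo replicates 1 to 3. Without TMM scaling the Cre and Flpo groups overlapped for MT-ATP6. Its log2 fold change between them in edgeR was −0.71 with this scaling and 0.083 without.

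MT-CO1, the catalytic subunit of cytochrome c oxidase, did not follow MT-CO2 and MT-CO3. It stood at 2583, 3638 and 5010 CPM across Cas9 replicates 1 to 3, at 1710, 12445 and 4610 across Cre replicates 1 to 3 and at 16927, 3641 and 10945 across Flpo replicates 1 to 3, and all groups overlapped. MT-CYB, the core of complex III, likewise ran from 2194 CPM in Cre replicate 1 to 16452 in Flpo replicate 1, with 16125 in Cre replicate 2.

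Among complex I messengers, MT-ND5 stood at 1812, 2054 and 1585 CPM across Cas9 replicates 1 to 3, at 890, 13106 and 4295 across Cre replicates 1 to 3 and at 3755, 1046 and 5779 across Flpo replicates 1 to 3. The Cas9 libraries lay close together, while the Cre libraries held both the lowest and the highest value of the 9. MT-ND4L stood at 460, 590 and 599.9 CPM across Cas9 replicates 1 to 3, at 157, 4065 and 1420.0 across Cre replicates 1 to 3 and at 1457, 461 and 2041 across Flpo replicates 1 to 3, with both extremes again in the Cre group. MT-ND4 ran from 3213 CPM in Cas9 replicate 1 to 14129 in Flpo replicate 1. MT-ND1 and MT-ND2 were lowest in Cre replicate 1 (806 and 884 CPM) and highest in Cre replicate 2 (6154 and 7229 CPM). MT-ND6, of the minus strand, ran from 627 CPM in Cre replicate 1 to 2997 in Cre replicate 2. MT-ND3 ran from 461 CPM in Cas9 replicate 1 to 1567 in Cas9 replicate 2, and MT-ATP8, the small ATP synthase subunit, from 135 CPM in Cas9 replicate 1 to 1014 in Flpo replicate 1.

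**Figure D3:**
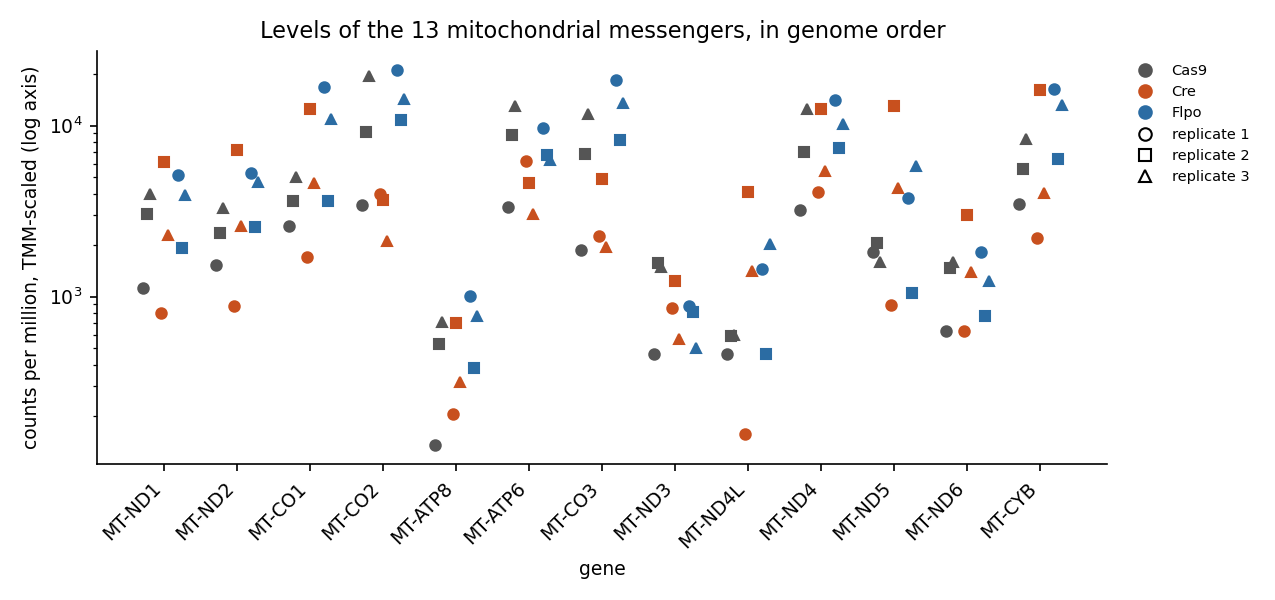
CPM with TMM scaling (log axis) for the 13 messengers in genome order, 1 point per library. For MT-CO2 and MT-CO3 the 3 Cre points lie below the 3 Flpo points, while for MT-ND5 and MT-ND4L the Cre points span the whole range.

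The comparison of Cre with Cas9 asked what Cre added to cells with Cas9. edgeR called 0 of 13 messengers at an adjusted p under 0.05, where 0% of the 11905 genes tested passed. At an unadjusted p under 0.05 it found 0 of 13 messengers and 7.38% of all genes. DESeq2 called 0 of 13 and limma voom with sample quality weights called 5: MT-ND4L and MT-ND5 higher and MT-CO2, MT-CO3 and MT-ATP6 lower. These fits called 0.0336% and 33.3% of all genes, so the limma count was near its background. The largest differences in edgeR were MT-ND4L at 1.77 ± 0.965 on the log2 scale (SE, 95% interval −0.31 to 3.85, adjusted p = 0.619), MT-ND5 at 1.75 ± 1.04 (SE, interval −0.49 to 3.98) and MT-CO2 at −1.71 ± 1.06 (SE, interval −3.99 to 0.58). All 13 intervals included 0, and none of the members had groups without overlap, against 9.83% of all genes. The sign was positive for 7 members and negative for 6, with a median of 0.18 against −0.22 over all genes. Without Cre replicate 2, MT-ND5 was at 0.52 and MT-ND4L at 0.53.

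The comparison of Flpo with Cas9 asked what Flpo added. edgeR called 0 of 13 messengers, where 0.227% of all genes passed (0.218% higher and 0.0084% lower). At an unadjusted p under 0.05 it found 0 of 13 messengers and 20% of all genes. DESeq2 called 0 and limma voom with sample quality weights 7: MT-CO1, MT-CO3, MT-CYB, MT-ND2, MT-ND4L and MT-ATP8 higher and MT-ND3 lower. These fits called 8.95% and 61% of all genes, so neither count stood above its background. In edgeR the differences ran from −0.67 ± 0.668 for MT-ND3 to 1.49 ± 1.05 for MT-CO1 on the log2 scale (SE), and the lowest adjusted p was 0.442. The sign was positive for 11 members, with a median of 0.66 against 0.05 over all genes; without TMM scaling it was positive for 8, with a median of 0.16 against −0.48. No member had groups without overlap, against 25% of genes.

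The third comparison put Cre and Flpo side by side. Each pair of comparisons shares a group of libraries, so their values are not independent. Again edgeR called 0 of 13 messengers, in a comparison where 20.5% of all genes passed. At an unadjusted p under 0.05 it found 0 of 13 messengers and 39.8% of all genes. DESeq2 called 2, MT-CO2 and MT-CO3, both lower in the Cre group (adjusted p of 0.00515 and 0.0162). limma voom with sample quality weights called 5, with MT-CO1, MT-ATP6 and MT-ATP8 besides these, all lower. DESeq2 called 33.4% and limma 67.6% of all genes, so both counts lay below their background. In edgeR, MT-CO2 was at −2.24 ± 1.08 on the log2 scale (SE, interval −4.57 to 0.09, adjusted p = 0.138) and MT-CO3 at −2.15 ± 1.05 (SE, interval −4.42 to 0.13, adjusted p = 0.144). With TMM scaling the groups did not overlap for 3 members, MT-CO2, MT-CO3 and MT-ATP6, against 43.2% of all genes. The sign was negative for 9 members, with a median of −0.53 against −0.34 over all genes; without TMM scaling 11 were positive, with a median of 0.29 against 0.44, and 2039 of 2879 calls over all genes were higher with Cre, where 735 of 2440 were with TMM. MT-CO2 and MT-CO3 were negative in each of the 21 other settings. Without Cre replicate 2, 0 of 13 were positive and the median was −1.22.

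**Figure D4:**
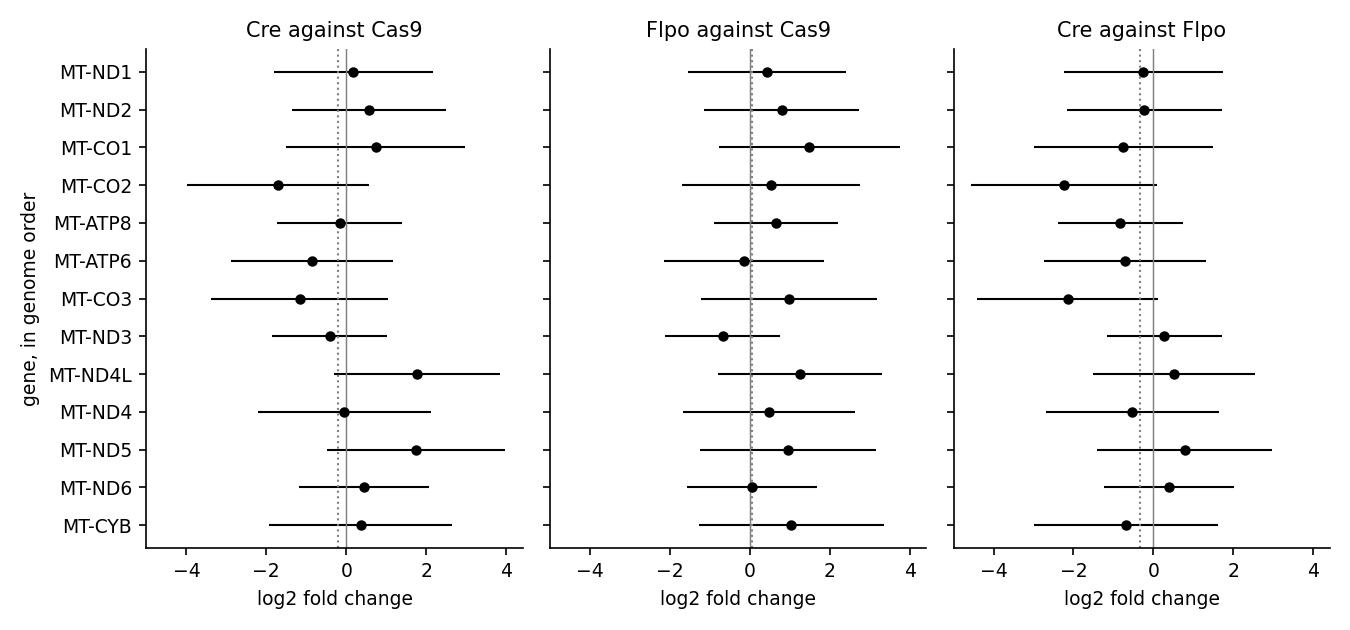
Log2 fold change of each messenger in edgeR (points) with its 95% interval (bars) in the 3 comparisons; the solid line marks 0 and the dotted line the median of all 11905 genes. All 39 intervals include 0, and MT-CO2 and MT-CO3 between Cre and Flpo come closest to excluding it.

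Across the 13 messengers, the difference between Cre and Cas9 was set against features of each messenger, and Spearman's rho was 0.31 for transcript length, −0.08 for GC content and 0.20 for position on the genome. Between Cre and Flpo the values were 0.04, −0.32 and 0.41, and between Flpo and Cas9 0.37, 0.38 and 0.04. The 13 points share libraries and depth, and in part sequence.

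Ratios between members do not depend on the library total. The MT-ND6 to MT-ND5 count ratio, the minus-strand messenger over its plus-strand neighbour, was 0.348, 0.715 and 1.00 across Cas9 replicates 1 to 3, 0.704, 0.229 and 0.326 across Cre replicates 1 to 3 and 0.486, 0.732 and 0.214 across Flpo replicates 1 to 3. The groups overlapped. An exact permutation test of any difference among the 3 groups, over the 280 splits, gave p = 0.539, where the smallest p possible was 0.00357. It was the only 1 of 3 planned ratios that was run. Use of strand in the counting is not given in the sources used here, so reads from MT-ND6 and from RNA antisense to it cannot be told apart.

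The genes that share a messenger did not keep a fixed ratio. Per kilobase, MT-ND4L over MT-ND4 ran from 0.178 in Cre replicate 1 to 1.51 in Cre replicate 2, an 8.46-fold range, with 0.223 to 0.665 in the Cas9 libraries and 0.289 to 0.933 in the Flpo libraries. MT-ATP8 over MT-ATP6 ran from 0.109 to 0.498, again with both extremes in Cre replicates 1 and 2. The widest ratio examined, chosen after its values were seen, was MT-ND5 over MT-CO2. As a ratio of counts, not scaled to length, it stood at 0.530, 0.224 and 0.0815 across Cas9 replicates 1 to 3, at 0.223, 3.55 and 2.03 across Cre replicates 1 to 3 and at 0.176, 0.0968 and 0.404 across Flpo replicates 1 to 3. The ratio spanned 43.5-fold and was highest in Cre replicates 2 and 3. Per kilobase it was 1.34 and 0.764 in these libraries and at most 0.200 in the other 7.

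**Figure D5:**
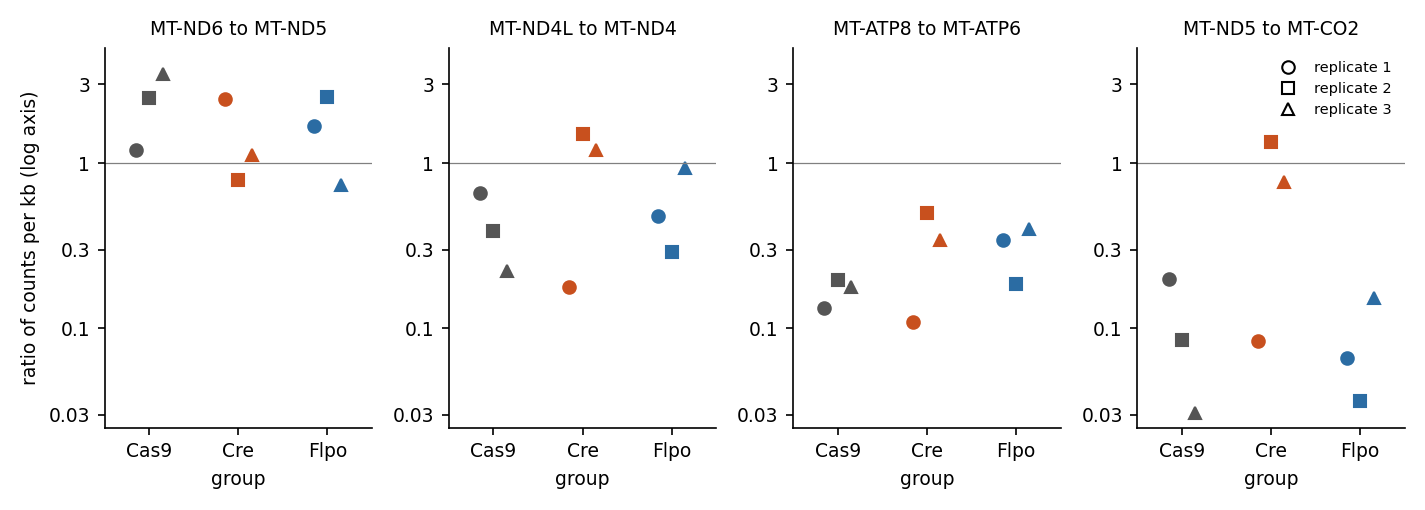
Ratios of counts per kilobase between pairs of members (log axis), 1 point per library, with the line at 1. For MT-ND4L to MT-ND4 and MT-ND5 to MT-CO2, Cre replicates 2 and 3 lie above the other 7 libraries, and Cre replicate 1 does not.

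The nuclear genes that express the mitochondrial genome were examined beside it. Of 66 listed genes for mitochondrial transcription, RNA processing, DNA maintenance, biogenesis and translation, 53 had enough counts to test. Between Cre and Flpo, 2 were higher and 11 lower in the Cre group, where 6.17% of all genes were called higher and 14.3% lower. Without TMM scaling 6 were higher and 4 lower, and the median log2 fold change of −0.91 became −0.13, or 0.28 when scaled to the mitochondrial sum, where 0 passed. With log2 totals as a covariate 0 passed and the median was 0.05. In the comparisons with Cas9, 0 passed in the main edgeR fit. Without Flpo replicate 2, edgeR called 8 higher and 2 lower with Flpo (2685 of 12595 genes). In the main fit, at an unadjusted p under 0.05, there were 4 of 53 (Cre) and 11 of 53 (Flpo), near the 7.38% and 20% of all genes. DESeq2 called 0 with Cre, and with Flpo 4 higher and 2 lower (8.95% of all genes). limma voom with sample quality weights called 4 higher and 10 lower with Cre (33.3% of all genes), and 23 higher and 7 lower with Flpo (61% of all genes). Between Cre and Flpo, 2 of 6 testable transcription genes, TFAM and MTERF4, were lower in the Cre group. Of all genes, 14.3% were called lower in that comparison. Among those not called, POLRMT averaged 24.6 ± 23.3 CPM with Cre and 24.6 ± 6.50 with Flpo (SD, n = 3 each). TFB1M averaged 23.3 ± 11.9 CPM with Cre and 8.98 ± 0.476 with Flpo (SD, n = 3 each). TEFM, MTERF1, MTERF2 and MTERF3 had lower means with Cre than with Flpo. TFB2M had counts only in Flpo replicates 1 and 3, at 0.518 and 0.958 CPM. MTERF4 fell by 2.38 on the log2 scale (edgeR adjusted p = 0.0453). TFAM, which packages mitochondrial DNA and starts its transcription, stood at 9.72, 26.4 and 29.2 CPM across Cas9 replicates 1 to 3, at 8.30, 0 and 4.38 across Cre replicates 1 to 3 and at 67.9, 39.3 and 70.9 across Flpo replicates 1 to 3. The Cre and Flpo groups did not overlap, and TFAM fell by 3.47 on the log2 scale with a standard error of 0.713 (edgeR adjusted p = 0.0167). The value of 0 in Cre replicate 2 came from the smallest library.

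Of 21 RNA processing and stability genes, 4 were lower in the Cre than the Flpo group and 0 higher, near the 20.5% of all genes called in that comparison. ELAC2, which trims the 3′ ends of mitochondrial transfer RNAs, fell by 2.63 (SE 0.623) and SLIRP by 2.27 (SE 0.620), with edgeR adjusted p of 0.0196 and 0.0274. FASTKD5, a mitochondrial RNA granule protein, fell by 2.53 (edgeR adjusted p = 0.0358). The counts in the smaller lists, 3 of 12, 3 of 10 and 1 of 4, stand beside the same 20.5%. Of 12 DNA maintenance genes, SSBP1, the mitochondrial single-stranded DNA-binding protein, fell by 2.28, DGUOK, a mitochondrial nucleoside kinase, fell by 2.54 and the nuclease EXOG rose by 1.80 (edgeR adjusted p of 0.0212, 0.0265 and 0.0236, in that order). Among 10 translation factors, TSFM fell by 3.65, TUFM fell by 2.83 and GFM1 rose by 1.83 (edgeR adjusted p of 0.0227, 0.0318 and 0.0375). Of 4 biogenesis regulators tested, ESRRA fell by 4.98 (edgeR adjusted p = 0.0211).

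Nuclear-coded subunits of the respiratory chain and ATP synthase, with the 4 of complex II, which has no mitochondrial messenger, were examined in the same fit. Of 76 subunits, all tested, edgeR called 36 lower in the Cre than the Flpo group (47.4%, against 14.3% of all genes called lower) and 0 higher (6.17% of all genes). DESeq2 called 46 lower and 1 higher (33.4% of all genes). limma voom with sample quality weights called 63 lower and 2 higher (67.6% of all genes). By complex, the edgeR calls were 13 of 37 for complex I, 2 of 4 for complex II, 5 of 9 for complex III, 9 of 11 for complex IV and 7 of 15 for ATP synthase. The median log2 fold change was −1.43 for nuclear complex I, −2.35 for complex III, −2.47 for complex IV and −1.96 for ATP synthase, against −0.53 for the 13 mitochondrial messengers. COX6C, a nuclear subunit of complex IV, stood at 26.8, 11.2 and 6.51 CPM with Cre and 232, 64.2 and 224 CPM with Flpo, and fell by 3.45 (SE 0.896, edgeR adjusted p = 0.0236). SDHB, an iron-sulfur subunit of complex II, fell by 5.72 (SE 1.04, edgeR adjusted p = 0.0167). Without TMM scaling 21 were lower and 2 higher; scaled to the mitochondrial sum, 1 was lower. With log2 totals as a covariate, in a comparison where all Cre totals lie below all Flpo totals, 0 passed and the median over the 76 moved from −1.995 to −0.17. In both comparisons with Cas9, 0 of 76 passed in the main edgeR fit. At an unadjusted p under 0.05 there were 19 (Cre) and 22 (Flpo), where 7.38% and 20% of all genes were. Without the filter edgeR called 1 lower with Cre (51 of 25386 genes) and 13 higher with Flpo (1169 of 25386 genes). Without Flpo replicate 2 it called 19 higher with Flpo (2685 of 12595 genes). DESeq2 called 0 with Cre (0.0336% of all genes) and 11 with Flpo, all 11 higher (8.95% of all genes). limma voom with sample quality weights called 42 lower and 3 higher with Cre (33.3% of all genes), and 54 higher and 1 lower with Flpo (61% of all genes). Whether the mitochondrial and the nuclear genes differed in their change was not tested. The calls between Cre and Flpo depend on single libraries. Over all genes, 0 passed without Cre replicate 2, without Cre replicate 3 or without Flpo replicate 1, so none of the nuclear genes named here did. Without Flpo replicate 3, 405 passed, and without Cas9 replicate 2, 1386 did. Without Flpo replicate 2, 5559 passed, among them 47 of the 76 subunits, all lower.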

How the data were processed

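The 9 libraries share a single deposited table of estimated counts by gene symbol, not normalized by the authors. Libraries were made from RNA with a TruSeq kit, per the labels' protocols, and per the submitters' processing notes Salmon 0.14.1 and the build hg38 were used. The annotation, filters and use of strand are not given in the sources used here. Fractional values made up 48.7% to 60.8% of those above 0, depending on the library. The planned design had named counts, so whole-number rounding preceded each count model. Of the 11905 genes kept by edgeR's filter (minimum count 10, minimum total 15), all 13 members were tested with edgeR 4.0.16 (R 4.3.3), quasi-likelihood, TMM, 1 fit of 9 libraries without covariates, and Benjamini-Hochberg adjustment over all genes with a threshold of 0.05. SE is the absolute log2 fold change over the square root of F. CPM are unrounded counts over TMM-scaled totals. DESeq2 1.42.0 and limma 3.58.1 gave alternatives. Exact tests used Python 3.11.15, and the code was tested on simulated data. Coordinates, lengths and sequences are from GENCODE 29 (GRCh38), of which all 13 symbols matched. Every member was named, and up to 3 called genes per list by adjusted p. The members and lists were chosen with earlier results of these data known. The chi-square per degree of freedom was at least 10.8 for every pair of libraries, so no pair differed by counting error alone. This does not show that replicates came from separate cultures.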

Additional observations from a re-analysis of the deposited data

How the results depend on the processing

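The 39 differences of single messengers were recomputed under 9 other settings, with each of 9 libraries left out, and under 3 alternatives chosen after seeing the data (scaling to the mitochondrial sum, thinning to the smallest library, limma voom with sample quality weights). Where a value changed, the cause was not tested. The number of messengers called stayed 0 except with DESeq2 (2 in Cre against Flpo) and with sample quality weights (5 with Cre and 7 with Flpo against Cas9, and 5 with Cre against Flpo). The count over all genes was less steady. For Cre against Cas9 it was 4 with DESeq2, 51 without a filter and 3960 with sample quality weights. For Flpo against Cas9 it was 12 without TMM, 1065 with DESeq2, 1169 without a filter, 2 with a minimum count of 50, 0 with only the 2 groups compared or with log2 totals as a covariate, 6 with the replicate block, 13 after thinning and 7268 with sample quality weights. For Cre against Flpo it was 3976 with DESeq2, 1622 with a minimum count of 50, 1568 with the replicate block, 0 with log2 totals as a covariate, 404 with scaling to the mitochondrial sum, 1040 after thinning and 8043 with sample quality weights. With single libraries left out it ran from 0 to 2685 for Flpo against Cas9 and from 0 to 5559 for Cre against Flpo. The nuclear lists moved with it.

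Replicate numbers come from the titles, and nothing in the labels says that same-numbered libraries were handled together. Deviations of same-numbered libraries from their group means correlated from −0.55 to 0.53. Each mean rests on 3 libraries, so these values cannot tell whether same-numbered libraries were handled together. With the replicate block no sign of a messenger changed, and the exact p of the MT-ND6 to MT-ND5 ratio was 0.667 over 36 splits. That p ran from 0.318 to 0.846 with single libraries left out. The mean mitochondrial shares ran from 4.24% to 6.67% (Cas9), 3.73% to 7.85% (Cre) and 5.25% to 7.06% (Flpo) in the same way. The planned ratios to MT-RNR2 were not run.

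Signs of uncalled differences (log2) changed as follows. Without TMM, Cre against Cas9 gave MT-ATP8 0.16 and MT-ND4 0.27. Flpo against Cas9 gave MT-ND1 −0.089, MT-ND4 −0.018 and MT-ND6 −0.48. Cre against Flpo gave MT-ATP6 0.083, MT-ATP8 0.0018, MT-CO1 0.10, MT-CYB 0.14, MT-ND1 0.58, MT-ND2 0.59 and MT-ND4 0.29. With the total count as a covariate, Cre against Cas9 gave MT-CO1 −0.15, MT-CYB −0.75, MT-ND1 −0.68, MT-ND2 −0.47 and MT-ND6 −0.17, and Cre against Flpo gave MT-ATP6 0.32, MT-ND4L −2.44, MT-ND5 −2.25 and MT-ND6 −0.70. With scaling to the mitochondrial sum, Cre against Cas9 gave MT-ATP8 0.079 and MT-ND4 0.15, Flpo against Cas9 gave MT-ND1 −0.27, MT-ND4 −0.12, MT-ND5 −0.17 and MT-ND6 −0.71, and Cre against Flpo gave MT-ATP6 0.44, MT-ATP8 0.027, MT-CO1 0.0019, MT-ND1 0.41, MT-ND2 0.37 and MT-ND4 0.27. In Cre against Cas9, MT-ND4 was at 0.027 with DESeq2 or its size factors and 0.019 with sample quality weights. MT-ND6 was at −0.054 after thinning and MT-ATP6 at 0.046 with sample quality weights (both Flpo against Cas9), as was MT-ND3 at −0.051 (Cre against Flpo). With single libraries left out, Cre against Cas9 ran from −0.81 to 0.58 for MT-ND1, −0.46 to 0.98 for MT-ND2, −0.24 to 1.14 for MT-CO1, −0.79 to 0.29 for MT-ATP8, −0.66 to 0.50 for MT-ND4, −0.27 to 0.80 for MT-ND6 and −0.89 to 0.74 for MT-CYB. Flpo against Cas9 ran from −0.39 to 0.31 for MT-ND6 and −0.54 to 0.31 for MT-ATP6. Cre against Flpo ran from −1.22 to 0.17 for MT-ND1, −1.24 to 0.20 for MT-ND2, −0.022 to 0.54 for MT-ND3, −0.72 to 1.02 for MT-ND4L, −0.42 to 1.31 for MT-ND5 and −0.31 to 0.78 for MT-ND6.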
